A study of Bos taurus with 29 samples.

Results

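Mitochondrial RNA is made, tailed, protected and destroyed by proteins that are encoded in the nucleus, and the transcripts of 10 such genes were followed through maturation of single cattle oocytes. The genes were chosen by their function, but with earlier results of these data known. All 10 (MTPAP, LRPPRC, SLIRP, TFAM, POLRMT, TFB2M, FASTKD1, FASTKD2, FASTKD3 and PNPT1) were among the 13502 genes of the deposited table. All 10 also passed the filter on low values, which kept 11852 genes (1 CPM or more in 6 or more libraries). CPM (counts per 1000000 reads) is the number of reads of a gene scaled to the total of its library. The scale does not correct for transcript length, so levels are compared between oocytes for 1 gene. Sums and ratios of genes are compared between oocytes too, and their size depends on transcript lengths.

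The mitochondrial genome is transcribed by a polymerase of its own, POLRMT, which starts at promoters that TFAM bends and TFB2M opens. The long precursors are cut into messenger, transfer and ribosomal RNAs. MTPAP adds poly(A) tails to most of the messengers, and the pair LRPPRC and SLIRP holds these in a stable, tailed form. PNPT1 degrades RNA together with the helicase SUPV3L1. Oocytes carry very many mitochondria, and the embryo inherits their RNA and proteins through the first cleavages.

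All oocytes were labelled wild type, came from the follicles of cattle given follicle stimulating hormone (FSH), and were sequenced singly. Germinal vesicle (GV) oocytes, in which meiosis has not resumed, were stripped of cumulus cells at collection and not cultured. Oocytes of the IVM group matured inside their cumulus complexes for 22 h in serum-containing medium with epidermal growth factor (EGF) and FSH. In the CNP_IVM group, 200 nM of C-type natriuretic peptide (CNP), which holds meiosis, was given for 6 h in medium lacking EGF, and 22 h of maturation followed, 28 h in all. Both matured groups were stripped afterwards and checked for a polar body. The table holds 22 oocytes, 7 of them GV, 8 IVM and 7 CNP_IVM, and another 7 named in the labels were not analysed here.

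No label ties an oocyte to a donor or a culture, so each group counted as 1 sample and no test between groups is given. Means, SDs and ranges describe the oocytes measured, which may share an animal. CNP, the longer culture and the EGF-free medium cannot be told apart. Since the libraries were primed on poly(A), the amount of a transcript and the length of its tail cannot be told apart either. For most messengers of the mitochondrial genome the tail is itself the product of MTPAP.

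Libraries held 20159662 to 39340040 reads. All 9 oocyte markers had a mean of at least 1 CPM in each group, and their summed level ran from 10487 to 16318 CPM (GV), from 8996 to 16966 CPM (IVM) and from 11084 to 16536 CPM (CNP_IVM). The 14 of 18 cumulus and granulosa markers with a row summed to 620.4 to 1092 CPM, 277 to 577 CPM and 141 to 181 CPM in the same order; of the 14, the mean reached 1 CPM for 10, 7 and 8, and none was at 0 in every oocyte of a group. The 3 of 8 blood and endothelial markers with a row (CD3E, VWF and PECAM1) summed to 171 to 361 CPM, 8.18 to 46.7 CPM and 3.53 to 25.7 CPM. STAR made up most of the first sum (means of 657, 316 and 93.9 CPM) and VWF most of the second (225, 21.1 and 11.2 CPM). PTGS2 went the other way, with means of 13.4, 38.004 and 37.6 CPM, and PECAM1 had means of 0.139, 0.523 and 0.192 CPM. In GV oocytes the means of CYP11A1, FSHR, NR5A1 and TNFAIP6 were 0.435, 0.275, 0.352 and 0.237 CPM. The other 10 of the 14 reached 1 CPM there, with SERPINE2 at 68.7 CPM and INHA at 15.7 CPM. Whether STAR came from the oocyte or from cumulus cells was not tested. Both sums were highest in GV oocytes, and their part in the differences below was not tested. The labels of GV replicate 9 disagree, since its title says GV and its treatment says in vitro maturation, and 9381 genes reached 1 CPM in it, against 11311 to 11798 in the other 6 GV oocytes. It was grouped by title, and where leaving it out changes a count or a sign, the value without it is given too.

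The transcription machinery split 3 ways. POLRMT, the polymerase, was lower in matured oocytes, TFB2M, which opens the promoter, was higher, and TFAM, which packages the genome and bends its promoters, differed little. The lowest, median and highest TFB2M levels were 20.8, 33.3 and 38.9 CPM in GV oocytes, 84.9, 133 and 173 CPM after IVM and 92.8, 180.3 and 239 CPM after CNP_IVM. Every matured oocyte therefore lay above every GV oocyte, and the IVM and CNP_IVM ranges overlapped. The mean was 32.6 ± 6.16 CPM (SD, n = 7 oocytes) in GV, 130.3 ± 32.7 CPM (SD, n = 8 oocytes) after IVM and 166 ± 51.4 CPM (SD, n = 7 oocytes) after CNP_IVM. Differences are given as log2 of the ratio of group means, each with 1 CPM added, which understates differences of low genes. For TFB2M the value was 1.97 for IVM and 2.32 for CNP_IVM, each against GV, and 0.35 between the matured groups (CNP_IVM against IVM).

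POLRMT had low CPM in all 3 groups. Its levels in the 7 GV oocytes ran from 0 through a median of 7.40 to 10.6 CPM, after IVM from 0 through 1.39 to 2.30 CPM, and after CNP_IVM from 0 through 1.58 to 3.56 CPM. One oocyte of each group had no POLRMT read (GV replicate 9, IVM replicate 7 and CNP_IVM replicate 4), which allows up to 0.0817, 0.149 and 0.0770 CPM, by 3 reads of the library total. The log2 difference was -1.66 in IVM and -1.44 in CNP_IVM against GV, and the ranges overlapped in both comparisons. Without GV replicate 9 the GV range was 2.79 to 10.6 CPM, which lay above every IVM oocyte but not above every CNP_IVM oocyte, and the differences were -1.85 and -1.64. Quantile normalization brought the CNP_IVM difference to -0.41, and a pseudocount of 5 CPM brought the IVM and CNP_IVM differences to -0.83 and -0.75, all under 2-fold. Summed over the oocytes of a group, the GV level was 6.05 CPM (95% exact Poisson interval 5.73 to 6.38), the IVM level 1.38 CPM (1.24 to 1.53) and the CNP_IVM level 1.66 CPM (1.51 to 1.82). These intervals, like the floors, cover only the counting of reads and not the capture of molecules.

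TFAM stayed between 1.32 and 5.05 CPM in all 22 oocytes. Its mean was 3.21 ± 0.85 CPM (SD, n = 7 oocytes) in GV, 2.14 ± 0.87 CPM (SD, n = 8 oocytes) after IVM and 3.21 ± 1.32 CPM (SD, n = 7 oocytes) after CNP_IVM. The log2 difference was -0.42 in IVM against GV, which turned to 0.31 with quantile normalization. In CNP_IVM against GV it was 0.0023 and under 2-fold as deposited, -0.07 without GV replicate 9, and 1.06 with quantile normalization. The 3 groups overlapped.

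**Figure D1:**
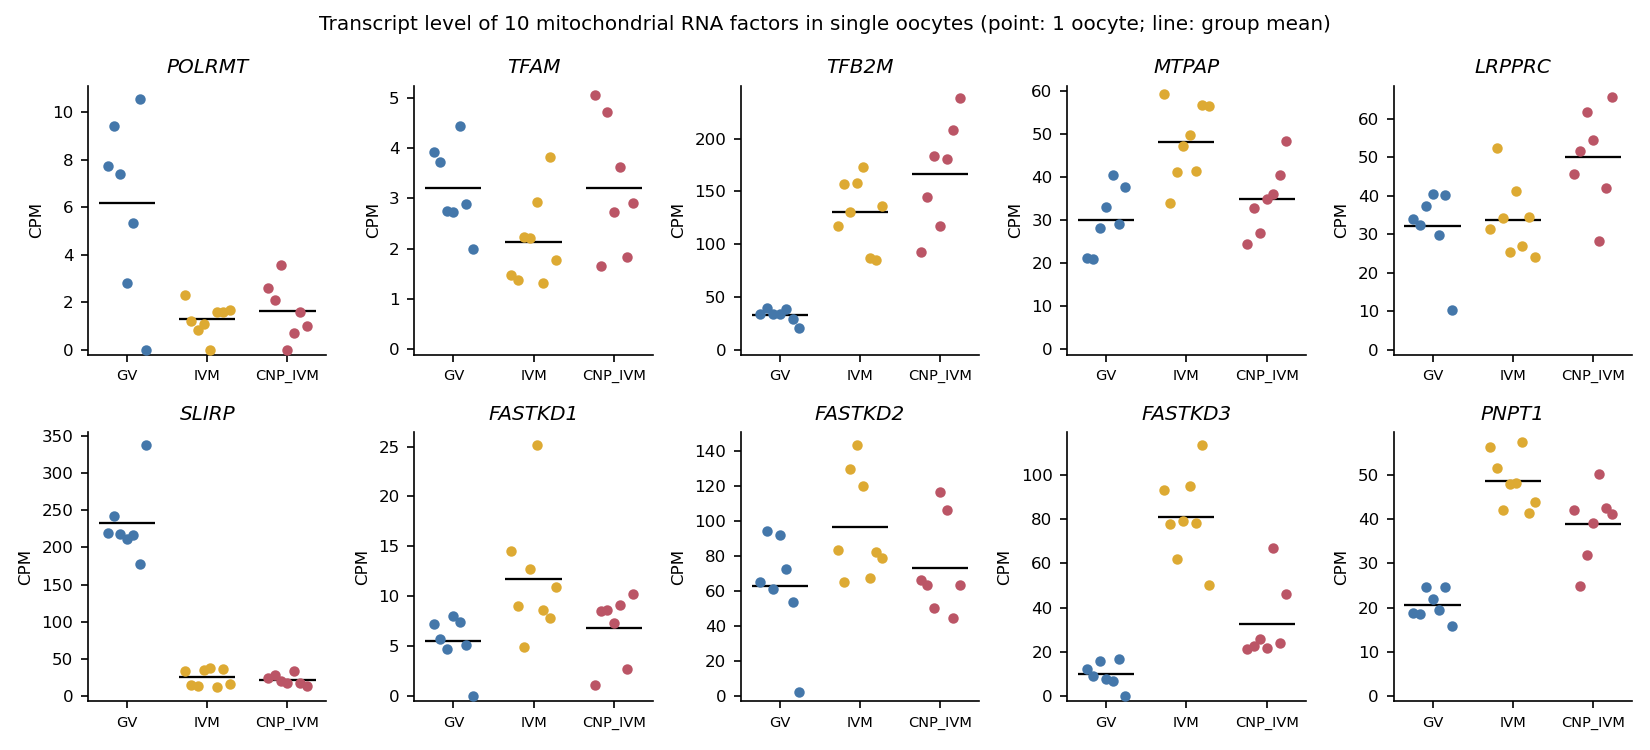
CPM (linear axis from 0, a separate scale per gene) of each of the 10 genes in 7 GV, 8 IVM and 7 CNP_IVM oocytes, each point 1 oocyte and each line the group mean. SLIRP is at 178 CPM or more in every GV oocyte and at 38.1 CPM or less in every matured oocyte, while TFB2M, FASTKD3 and PNPT1 are higher in every matured oocyte than in any GV oocyte.

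MTPAP, the mitochondrial poly(A) polymerase, was most abundant after IVM. Its lowest, median and highest levels were 20.9, 29.1 and 40.5 CPM in GV, 33.9, 48.5 and 59.2 CPM after IVM and 24.5, 34.9 and 48.5 CPM after CNP_IVM. Of the 8 IVM oocytes, 7 lay above every GV oocyte, and 1 of the 7 CNP_IVM oocytes did. All of these differences were under 2-fold: against GV the log2 value was 0.66 for IVM and 0.21 for CNP_IVM, and between CNP_IVM and IVM it was -0.46. With quantile normalization the first was 1.03, just past 2-fold.

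LRPPRC and SLIRP, whose proteins form 1 complex on mitochondrial messengers, differed in their pattern. SLIRP, the small RNA-binding partner, was at 178, 218 and 338 CPM (lowest, median, highest) in GV oocytes, at 12.8, 25.02 and 38.1 CPM after IVM and at 13.8, 19.7 and 33.96 CPM after CNP_IVM. The GV oocytes lay far above both matured groups, and the CNP_IVM range lay inside the IVM range. The mean was 9.23-fold lower after IVM and 10.5-fold lower after CNP_IVM than in GV, log2 differences of -3.16 and -3.33. They were -3.04 and -3.22 without GV replicate 9, which held the highest value, and -2.85 and -2.79 with TMM factors, a scaling to the bulk of genes. Between CNP_IVM and IVM the difference was -0.18, and it turned to 0.07 with TMM factors and to 0.10 with quantile normalization. Summed over oocytes, the GV level of SLIRP was 234 CPM (95% exact Poisson interval 232 to 236), the IVM level 24.9 CPM (24.3 to 25.5) and the CNP_IVM level 22.1 CPM (21.5 to 22.6).

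LRPPRC, the large partner, was at 10.2, 33.8 and 40.4 CPM (lowest, median, highest) in GV, at 23.9, 32.8 and 52.3 CPM after IVM and at 28.2, 51.7 and 65.7 CPM after CNP_IVM. The low GV value was that of replicate 9, and the other 6 GV oocytes lay between 29.7 and 40.4 CPM. Of the 7 CNP_IVM oocytes, 6 lay above every GV oocyte and 3 above every IVM oocyte. Against GV, the log2 difference was 0.07 for IVM (-0.08 without GV replicate 9) and 0.63 for CNP_IVM (0.48 without it). CNP_IVM differed from IVM by 0.55. TMM factors brought the CNP_IVM difference from GV to 1.16, past 2-fold.

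A ratio of 2 genes in the same oocyte does not depend on any scaling by 1 factor per library, such as CPM or TMM, though quantile normalization can change it. The number of LRPPRC reads per SLIRP read had a median of 0.154 in GV oocytes, with a range of 0.0300 to 0.226, or 0.134 to 0.226 without replicate 9. It was 1.29 (0.709 to 3.56) after IVM and 2.38 (0.829 to 4.78) after CNP_IVM. Every matured oocyte lay above every GV oocyte, and the 2 matured groups overlapped. The ratio was chosen after the values of both genes had been seen.

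**Figure D2:**
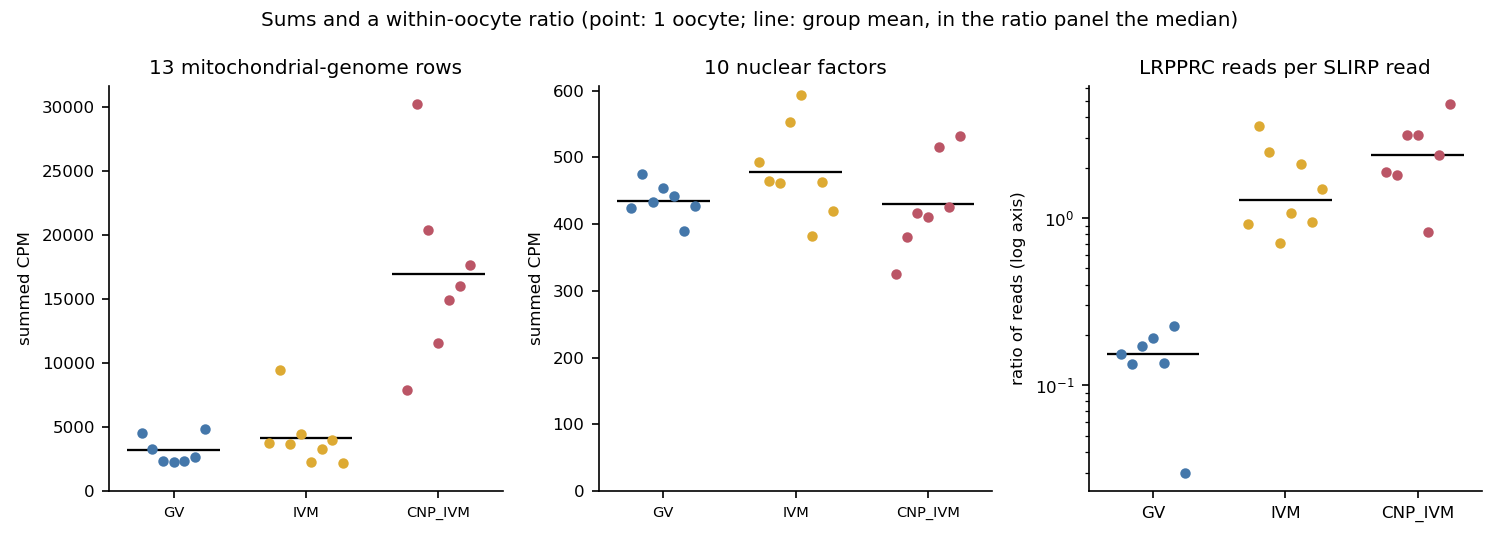
Left and middle, summed CPM (linear axis from 0) of the 13 mitochondrial-genome rows and of the 10 nuclear factors in each oocyte, with lines at group means. Right, LRPPRC reads per SLIRP read on a log axis with lines at medians, where all 15 matured oocytes are at 0.709 or above and all 7 GV oocytes at 0.226 or below.

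The FASTK family proteins FASTKD1, FASTKD2 and FASTKD3 bind mitochondrial RNA and set the level of particular transcripts. In human cells FASTKD2 is needed for the large ribosomal RNA and for ND6 messenger. FASTKD3 had the widest differences of the 3. Its lowest, median and highest levels were 0, 8.98 and 16.8 CPM in GV, 50.2, 78.7 and 113 CPM after IVM and 21.3, 23.8 and 66.7 CPM after CNP_IVM. GV replicate 9 had no FASTKD3 read, which allows up to 0.0817 CPM. Every oocyte of both matured groups lay above every GV oocyte, with log2 differences of 2.94 in IVM and 1.65 in CNP_IVM. Without GV replicate 9 these were 2.73 and 1.44. In CNP_IVM against IVM the difference was -1.29. Of the 7 CNP_IVM oocytes, 6 lay below every IVM oocyte, and replicate 5, at 66.7 CPM, lay inside the IVM range. With TMM factors this difference was -1.02. With quantile normalization it was -0.9993, on the other side of 2-fold.

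FASTKD2 ranged from 2.43 CPM in GV replicate 9 to 94.1 CPM among GV oocytes, from 65.3 to 143 CPM after IVM and from 44.3 to 116 CPM after CNP_IVM. Its log2 difference was 0.61 in IVM against GV and 0.39 without GV replicate 9. In CNP_IVM against GV it was 0.21 and then -0.0044. FASTKD1 ranged from 0 to 8.06 CPM, from 4.94 to 25.1 CPM and from 1.11 to 10.2 CPM in the order GV, IVM and CNP_IVM. Its log2 difference in IVM against GV, 0.97, lay just under 2-fold, was 0.78 without GV replicate 9 and was 1.22 with TMM factors. Its difference in CNP_IVM against IVM was -0.71. Neither gene separated any 2 groups.

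PNPT1, the exoribonuclease polynucleotide phosphorylase, was higher in matured oocytes. Its lowest, median and highest levels were 15.9, 19.5 and 24.7 CPM in GV, 41.5, 48.1 and 57.6 CPM after IVM and 24.97, 41.2 and 50.3 CPM after CNP_IVM. Every matured oocyte lay above every GV oocyte, by a narrow margin for CNP_IVM replicate 2. The log2 difference was 1.20 in IVM against GV and 0.89, under 2-fold, in CNP_IVM against GV. The second was 1.42 with TMM factors and 1.55 with quantile normalization. In CNP_IVM against IVM it was -0.32, and -0.05 with TMM factors.

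Ratios within oocytes were also taken for 3 other pairs of factors, again chosen after their values had been seen. TFB2M reads per POLRMT read ran from 2.77 to 12.0 in 6 GV oocytes, from 50.8 to 158.5 in 7 IVM oocytes and from 35.8 to 262 in 6 CNP_IVM oocytes. The 3 oocytes with no POLRMT read have no ratio, and the matured values all lay above the GV values. FASTKD3 reads per FASTKD2 read had medians of 0.0955 in GV, 0.954 after IVM and 0.514 after CNP_IVM, and the ranges of GV (0 to 0.315) and CNP_IVM (0.186 to 0.732) overlapped. MTPAP reads per PNPT1 read, the tailing enzyme beside the nuclease, ran from 1.12 to 2.37 in GV, from 0.659 to 1.36 after IVM and from 0.581 to 1.31 after CNP_IVM, so the 3 groups overlapped.

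**Figure D3:**
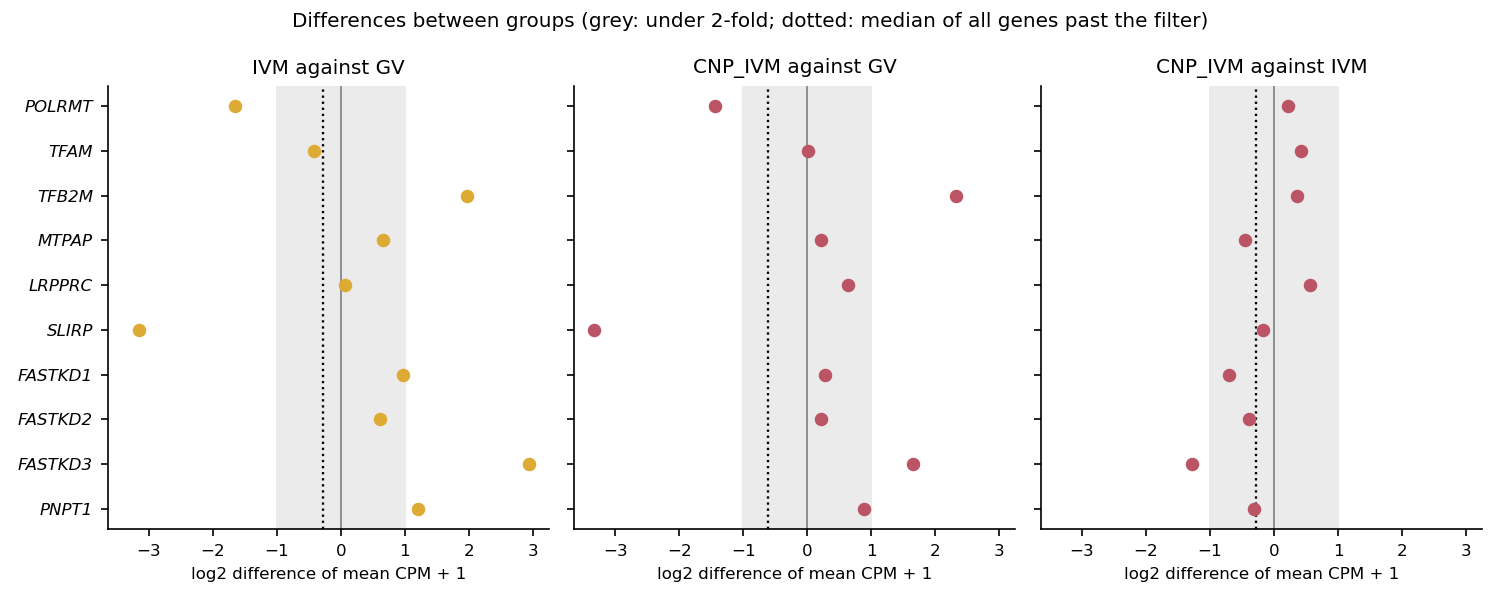
Log2 difference of mean CPM + 1 for each of the 10 genes in the 3 comparisons, with the grey band under 2-fold and the dotted line at the median of all 11852 genes. In the right panel 9 of the 10 genes lie in the band, and FASTKD3 at -1.29 lies outside.

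Counted together, 3 of the 10 genes (TFB2M, FASTKD3 and PNPT1) were at least 2-fold higher after IVM than in GV oocytes, where 15.9% of all genes were, and 2 (SLIRP and POLRMT) were at least 2-fold lower, where 33.0% of all genes were. The median log2 difference of the 10 genes was 0.63, and that of all genes was -0.28. Every IVM oocyte lay above every GV oocyte for 3 of the 10 genes and below for SLIRP alone, and among all genes the shares were 11.5% and 19.9%. Without GV replicate 9, POLRMT lay below too, which made 2, and the shares were 14.0% and 25.6%. In CNP_IVM against GV, 2 genes (TFB2M and FASTKD3) were at least 2-fold higher, where 15.3% of all genes were, and SLIRP and POLRMT were again at least 2-fold lower, where 42.0% of all genes were. The medians were 0.24 for the 10 genes and -0.61 for all genes. Every CNP_IVM oocyte lay above every GV oocyte for TFB2M, FASTKD3 and PNPT1 and below for SLIRP, beside 12.9% and 28.0% of all genes. Both comparisons used the same GV oocytes.

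The scaling of the libraries moved these backgrounds. Of the genes at least 2-fold apart in IVM against GV, 32.4% were on the higher side as deposited, 43.9% with TMM factors, which put the median of all genes at -0.05, and 52.6% with quantile normalization, which put it at 0.18. In CNP_IVM against GV the same shares were 26.8%, 43.4% and 53.1%, with medians of -0.61, -0.13 and 0.18. SLIRP lower and TFB2M and FASTKD3 higher, by at least 2-fold in both comparisons with GV, held under all 3 scalings.

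In CNP_IVM against IVM, 0 of the 10 genes were at least 2-fold higher, where 1.86% of all genes were, and FASTKD3 alone was at least 2-fold lower, where 14.8% were. No gene of the 10 separated the 2 matured groups, and among all genes every CNP_IVM oocyte was above every IVM oocyte for 1.38% and below for 2.60%. The medians were -0.25 for the 10 genes and -0.28 for all genes. Of the genes at least 2-fold apart, 11.1% were on the higher side as deposited, 31.5% with TMM factors and 39.98% with quantile normalization.

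The 13 protein-coding rows of the mitochondrial genome are the transcripts on which these proteins act. Their summed level ran from 2277 to 4834 CPM (GV), from 2205 to 9414 CPM (IVM) and from 7908 to 30207 CPM (CNP_IVM), with medians of 2666, 3699 and 16001 CPM. From GV, the mean sum differed on the log2 scale by 0.37 for IVM and 2.41 for CNP_IVM, and CNP_IVM differed from IVM by 2.04. Without IVM replicate 3, at 9414 CPM, the IVM difference from GV was 0.08 and the CNP_IVM difference from IVM 2.33. Each of the 13 rows was at least 2-fold higher in CNP_IVM than in IVM oocytes, from 1.82 for COX1 to 2.68 for ND3. For 6 of the 13 every CNP_IVM oocyte lay above every IVM oocyte, beside 1.38% of all genes. The other 7, COX1 among them, overlapped. ND3, whose messenger is held down by FASTKD1 in human cells, was at 14.8 to 84.9 CPM after IVM and 89.3 to 647 CPM after CNP_IVM, without overlap. ND6, the messenger that needs FASTKD2 in human cells, was at 15.03 to 68.8 CPM and 108 to 449 CPM, also without overlap. In the same oocytes FASTKD1 and FASTKD2 overlapped between the matured groups, with CNP_IVM against IVM differences of -0.71 and -0.40. Whether either bears on ND3 or ND6 was not tested, and all 13 rows were higher, not these alone. The summed level of the 10 genes was 435 ± 26.5 CPM (SD, n = 7 oocytes) in GV, 479 ± 68.03 CPM (SD, n = 8 oocytes) after IVM and 429 ± 72.6 CPM (SD, n = 7 oocytes) after CNP_IVM, with all 3 ranges overlapping. That sum adds genes on opposite sides of GV, such as SLIRP and TFB2M, and so describes none of them. LRPPRC, at 0.55, had the highest CNP_IVM against IVM value of the 10, and its 2 groups overlapped. Taking the mitochondrial-genome rows out of the library total left the same genes past 2-fold in each comparison.

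Among the oocytes of a group, the relation of each factor to the mitochondrial sum changed with the oocytes included. Pearson's r was computed between log2 CPM of each gene and log2 of the sum within each group, 30 values over 7 or 8 oocytes that share group, culture and perhaps donor. Of these, 14 kept their sign in Spearman's rho and after leaving out the 2 oocytes farthest from the median sum. With all oocytes, TFAM and FASTKD2 had negative r in all 3 groups, and no other factor had r of 1 sign throughout. The r values of TFAM were -0.19 in GV, -0.29 in IVM and -0.56 in CNP_IVM (rho 0.04, -0.07 and -0.46). They were 0.30, -0.10 and 0.45 without the 2 farthest oocytes, and the GV value was 0.46 without replicate 9. For FASTKD2, r was -0.64, -0.28 and -0.34 (rho -0.39, 0 and -0.64). Without the 2 farthest oocytes it was 0.26, 0.0065 and -0.77, and the GV value was -0.04 without replicate 9. POLRMT, the polymerase, had r of -0.42, 0.24 and 0.25 (rho 0.07, -0.02 and 0.36). It had 0.68, 0.75 and 0.93 without the 2 farthest oocytes, and 0.47 in GV without replicate 9. Its r was thus positive in every group once those oocytes were left out, over 5 or 6 oocytes a group and few reads. IVM replicate 7 and CNP_IVM replicate 4, each with 0 POLRMT reads, stayed in these values, and r without them was not computed. Without GV replicate 9, TFB2M (0.10, 0.08 and 0.57) and FASTKD3 (0.17, 0.21 and 0.10) also had positive r in all 3 groups, and TFAM no longer had 1 sign. MTPAP had r of -0.29, -0.64 and 0.29 (rho -0.18, -0.26 and 0.14), and -0.82 in GV without replicate 9. Without the 2 farthest oocytes its r was -0.83, 0.11 and -0.16, so the sign changed in both matured groups.

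Other genes of mitochondrial gene expression came from lists by role, 59 genes past the filter in all. After IVM, 11 of the 59 were 2-fold or more above GV and 20 were 2-fold or more below, with a median of -0.40. After CNP_IVM, 10 were above and 31 below, with a median of -1.07. Both medians lay below those of all genes. Without GV replicate 9 the counts were 9 and 19 after IVM and 8 and 31 after CNP_IVM. Among all genes, 15.9% were at least 2-fold above GV and 33.0% below after IVM, and 15.3% and 42.0% after CNP_IVM. The counts of each list below stand beside these same shares. In CNP_IVM against IVM 0 were higher and 11 lower, with a median of -0.56, where 1.86% and 14.8% of all genes were. Every CNP_IVM oocyte lay above every IVM oocyte for 1 of the 59 and below for 2, beside 1.38% and 2.60% of all genes. The 1 above was TRMT10C, named after its values were seen, with means of 63.4 and 33.1 CPM, under 2-fold.

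Of 6 other transcription and termination factors, 3 were 2-fold or more higher and 1 lower after IVM (2 and 1 without GV replicate 9). TEFM, the elongation factor of POLRMT, was lower like POLRMT: 120.1 to 267 CPM in GV, 23.2 to 66.4 CPM after IVM and 27.8 to 53.9 CPM after CNP_IVM, log2 differences of -2.25 and -2.42 from GV. MTERF1, which binds the genome at a termination site, ranged from 0 to 39.5 CPM among GV oocytes and from 32.6 to 79.6 CPM among IVM oocytes, a difference of 1.21, or 0.99 without GV replicate 9. MTERF3, a member of the termination factor family, was at 582 to 722 CPM in GV against 1029.9 to 1558 CPM after IVM, a difference of 1.05. Of 11 genes of mitochondrial DNA maintenance, 2 were higher and 4 lower after IVM (3 lower without GV replicate 9), and 2 higher and 7 lower after CNP_IVM. SSBP1, the single-stranded DNA-binding protein of the replication fork, was at 125 to 217 CPM in GV, 7.09 to 10.6 CPM after IVM and 7.11 to 15.8 CPM after CNP_IVM. PRIMPOL, a primase and polymerase, was at 152 to 215 CPM, 551 to 890.04 CPM and 399 to 792 CPM in the same order. MGME1, a mitochondrial exonuclease, separated the matured groups, at 29.5 to 54.2 CPM after IVM and 10.5 to 27.9 CPM after CNP_IVM.

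Of 4 genes whose proteins take part in the cutting of precursor transcripts, 2 were lower and 0 higher in both comparisons with GV. Without GV replicate 9 PRORP, named after its values were seen, made it 3 lower after CNP_IVM (-0.98 with that oocyte and -1.04 without). HSD17B10, a subunit of mitochondrial RNase P, was at 80.01 to 142 CPM in GV, 10.9 to 40.95 CPM after IVM and 5.21 to 23.4 CPM after CNP_IVM. Of 10 other stability and decay genes, 2 were higher and 4 lower after IVM, and 3 higher and 4 lower after CNP_IVM. Without GV replicate 9, 1 and 2 were higher and 4 lower in each. SUPV3L1, the helicase that works with PNPT1, was higher as PNPT1 was: 35.2 to 64.8 CPM in GV, 193 to 411 CPM after IVM and 143 to 198 CPM after CNP_IVM, log2 differences of 2.34 and 1.58. GRSF1, which binds guanine-rich mitochondrial RNA, had means of 16.8, 30.8 and 45.01 CPM in GV, IVM and CNP_IVM, and its CNP_IVM difference from GV was 1.37. PDE12, which trims poly(A) tails in mitochondria and so opposes MTPAP, was at 0 to 9.21 CPM in GV, 6.65 to 17.2 CPM after IVM and 0.231 to 7.88 CPM after CNP_IVM. Its CNP_IVM against IVM difference was -1.62 with overlapping ranges, and its IVM difference from GV was 1.04, or 0.85 without GV replicate 9. TBRG4, another FASTK family member, had means of 14.1, 1.74 and 0.706 CPM in GV, IVM and CNP_IVM, and its groups overlapped through GV replicate 9, at 0.0545 CPM. DDX28, a helicase of the mitochondrial RNA granule, was at 34.8 to 79.3 CPM in GV and at no more than 7.91 CPM in any matured oocyte.

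Of 17 RNA modification genes, 1 was higher and 6 lower after IVM, and 1 higher and 12 lower after CNP_IVM. Among all genes, 33.0% were lower after IVM and 42.0% after CNP_IVM. MRM1, a methyltransferase of mitochondrial ribosomal RNA, was at 100.1 to 185 CPM in GV, 1.24 to 22.9 CPM after IVM and 0.344 to 3.81 CPM after CNP_IVM. TRMU, which thiolates mitochondrial transfer RNAs, had means of 73.2, 6.03 and 2.88 CPM in the same order. Of 11 translation factors, 3 were higher and 3 lower after IVM, and 2 higher and 4 lower after CNP_IVM. The elongation factor gene TUFM had means of 152, 13.5 and 8.58 CPM, and the initiation factor gene MTIF2 40.4, 131 and 102 CPM, in GV, IVM and CNP_IVM.

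**Figure D4:**
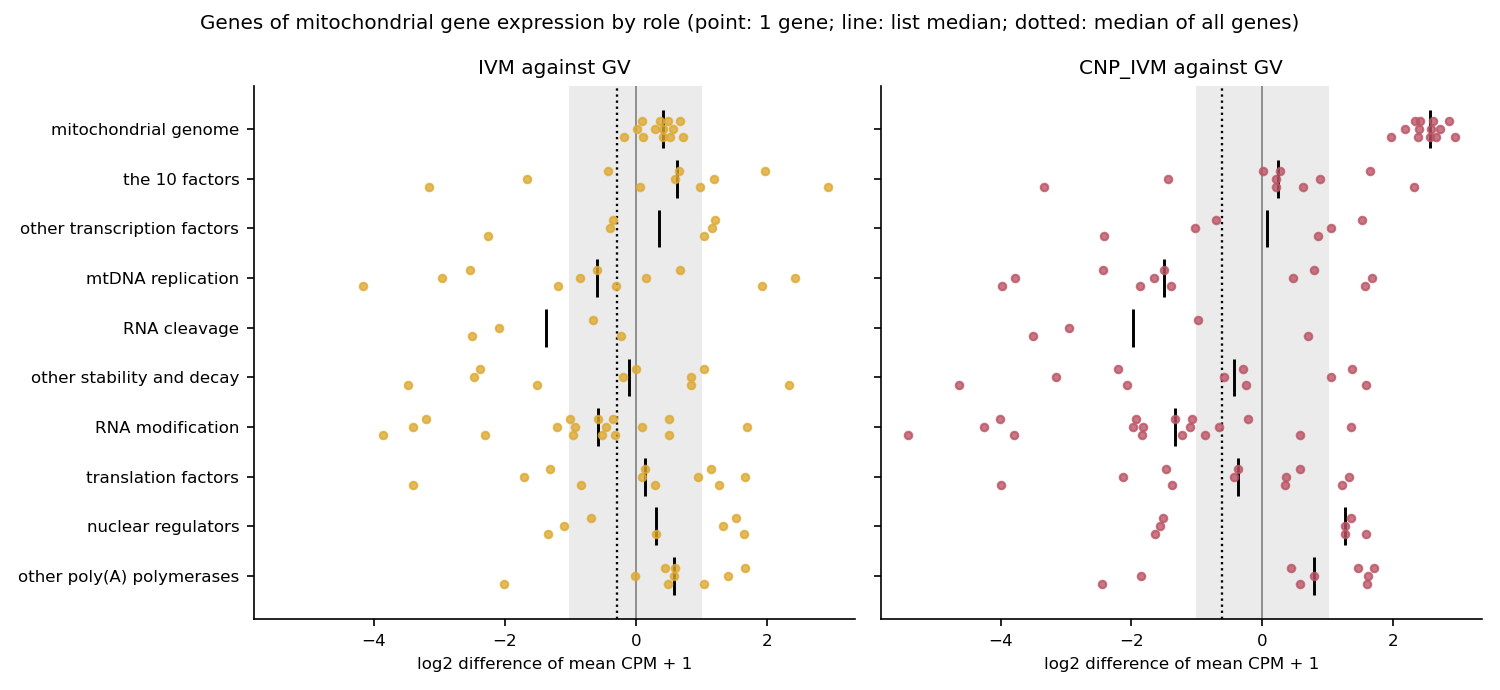
Log2 difference from GV of mean CPM + 1 for IVM (left) and CNP_IVM (right), each point 1 gene past the filter, with a grey band under 2-fold, black lines at list medians and the dotted line at the median of all genes. The mitochondrial genome list has a median of 0.41 on the left and 2.56 on the right, while the 10 factors have medians of 0.63 and 0.24.

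The genes whose profile over the 22 oocytes was most like that of a factor were taken by the smallest root mean square difference of centred log2 values, among 6992 or 6993 genes with a mean of at least 10 CPM. For SLIRP these were MGC148714 (0.26), CHCHD7 (0.27) and RPL34 (0.32), where the median gene was at 1.74. CHCHD7, a small twin-cysteine protein, had means of 1006 CPM in GV, 104 CPM after IVM and 106 CPM after CNP_IVM. For MTPAP they were KLHL7 (0.26), RAB2B (0.29) and HACD3 (0.29), and for LRPPRC RAD17 (0.30), NVL (0.30) and GOLPH3L (0.33). For TFAM they were RRP15 (0.34), NDUFA6 (0.35) and FABP3 (0.35), and for POLRMT SCAP (0.54), PPP2R2A (0.58) and BAG6 (0.58). TFAM itself differed little between oocytes, so a gene of constant level would also lie near it by this measure. A small value for TFAM therefore does not show a shared profile.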

How the data were processed

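Each library was made from 1 oocyte with SMART-Seq v4 and Nextera XT, per the labels' protocols. HISAT2 2.2.1, featureCounts 2.0.1, edgeR, Trim Galore 0.6.7 and FastQC are listed without a role, as is the mouse build GRCm39, per the submitters' processing notes, while all 10 gene symbols are in the RefSeq table of the cattle assembly. No coordinates are given. The authors deposited 1 table named for TPM whose values are CPM: the smallest step between values is shared by all genes of a library, and 100% of values gave whole reads within 0.01 read. Reads and library totals (20159662 to 39340040) were recovered from that step. Oocytes of 1 group differed by a chi-square of at least 37.96 per degree of freedom, so none was a copy of another.

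Each description names its sample's column, titles gave the groups, and 0 columns were left over. With no donor named, each group counted as 1 sample, so neither the count test that recovered reads would allow nor any other test was used. The planned summary was kept: log2 of mean CPM + 1, with 2-fold as the limit and the filter of 1 CPM in 6 libraries. The promoter motifs of the design were not analysed here. The members and lists were chosen with earlier results of these data known. All members and, from other lists, genes at least 2-fold apart with a mean of at least 10 CPM and the 2 largest differences per direction could be named. Steps were tested on simulated reads. Python 3.11.15, pandas 2.3.3, numpy 2.4.6, scipy 1.17.1, R 4.3.3 and edgeR 4.0.16 (TMM factors only) were used. Alternatives were other scalings, pseudocounts, medians, no filter, another fold and leaving out each oocyte.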

Additional observations from a re-analysis of the deposited data

Results flagged for a closer look

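In 33 sets of values (10 genes and the mitochondrial sum in 3 groups), 5 held an oocyte far from the rest of its group. By chance about 1 set in 20 is marked if values are normal and sets independent, but these sets share oocytes. GV replicate 9 accounts for 3 of the 5. It had LRPPRC at 10.2 CPM where the other 6 GV oocytes had 29.7 to 40.4 CPM, SLIRP at 338 CPM where they had 178 to 243 CPM, and FASTKD1 at 0 CPM where they had 4.75 to 8.06 CPM. IVM replicate 7, the library with the fewest reads, had FASTKD1 at 25.1 CPM against 4.94 to 14.5 CPM in the other 7. That gap was 0.526058 of the range, barely past the limit of 0.526. IVM replicate 3 had summed mitochondrial-genome transcripts of 9414 CPM against 2205 to 4456 CPM in the other 7. The same oocyte had the highest LRPPRC level (52.3 CPM) and the lowest MTPAP level (33.9 CPM) among IVM oocytes.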

How the results depend on the processing

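The count of genes at least 2-fold apart moved by over 1.5 times under 4 alternatives. With quantile normalization, 5 genes were higher in IVM against GV, 6 higher and 1 lower in CNP_IVM against GV, and 0 lower in CNP_IVM against IVM. With TMM factors, 4 were higher in CNP_IVM against GV. A pseudocount of 5 CPM left 1 lower in each comparison with GV, since it shrinks POLRMT, a low gene. A limit of 1.5-fold gave 6 and 4 higher in IVM and CNP_IVM against GV and 2 lower in CNP_IVM against IVM. A pseudocount of 0.1 CPM, medians over oocytes, no filter, a total without mitochondrial-genome rows and leaving out GV replicate 9 kept each count within 1.5 times. Leaving out each other oocyte did too, with 3 to 4 genes higher and 2 lower in IVM against GV, FASTKD1 being the gene that crossed. Of 709 single values under alternatives, 690 moved by less than 1 SD between oocytes and 0 of those past 2-fold changed direction. Leaving out 1 oocyte other than GV replicate 9 gave 462 of the 709, and none of these moved further. The 19 that did were among the 247 values of the other settings, of which the setting without a filter cannot move a single value. Among values under 2-fold, 15 changed sign, all for TFAM, LRPPRC, FASTKD2 or SLIRP. No paired analysis was possible because no test was made and the replicate numbers only name oocytes. Depth was not the limit for most members, but POLRMT, TFAM and FASTKD1 had few reads. The 3 libraries with no POLRMT read were not all shallow. GV replicate 9 had 36698324 reads in all, the most of the GV group, and CNP_IVM replicate 4 had 38937802. IVM replicate 7 had 20159662, the fewest of all.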

Other observations

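Nuclear regulators of mitochondrial genes and the other poly(A) polymerases were read beside the 10 factors. For both lists, the shares of all genes above and below GV were 15.9% and 33.0% after IVM, and 15.3% and 42.0% after CNP_IVM. After IVM 3 of the 7 regulators that passed were 2-fold or more above GV and 2 below (1 below without GV replicate 9), and after CNP_IVM 4 were above and 3 below. PPARGC1A, the coactivator PGC-1alpha, was at 19.8 to 40.6 CPM in GV, 71.1 to 132 CPM after IVM and 40.05 to 139 CPM after CNP_IVM. NRF1, a transcription factor for TFAM and TFB2M in human cells, was at 36.8 to 88.1 CPM, 20.9 to 38.2 CPM and 9.57 to 21.4 CPM in the same order, so every CNP_IVM oocyte lay below every GV oocyte. YY1 was at 10.7 to 19.2 CPM, 10.3 to 35.2 CPM and 24.96 to 54.4 CPM, and its difference in CNP_IVM against IVM was 1.04.

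Of 9 nuclear and cytosolic poly(A) and poly(U) polymerase genes past the filter, 3 were higher and 1 lower after IVM (2 and 1 without GV replicate 9), and 4 higher and 2 lower after CNP_IVM. PAPOLG, a nuclear poly(A) polymerase, had means of 689 CPM in GV, 2187 CPM after IVM and 2254 CPM after CNP_IVM, and GV replicate 9, at 131 CPM, was its lowest oocyte. TENT4B, a noncanonical poly(A) polymerase, was at 9.19 to 18.8 CPM after CNP_IVM, above every IVM oocyte (3.15 to 8.55 CPM). TENT5C, of another noncanonical family, had a mean of 5.68 CPM after CNP_IVM against 35.2 CPM after IVM, with overlapping ranges.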
